A study of Mus musculus with 4 samples.

Results

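The cardiac transcription factors are 10 genes whose products direct the formation and differentiation of heart muscle. They are Nkx2-5, Isl1, Hand1, Hand2, Mef2a, Mef2c, Mef2d, Srf, Myocd and Casz1, and a Zeb1 peak was counted for a gene when the gene symbol given with the peak in the deposited list was that gene's symbol. The list held 17435 peaks assigned to 12271 gene names, and 31 of these peaks were assigned to the 10 genes. Zeb1 occupancy was measured by chromatin immunoprecipitation followed by sequencing (ChIP-seq) in mESC, with 3 Zeb1 ChIP libraries and 1 input library, which is chromatin sequenced without the antibody. The mESC were the D3 line, an established mouse embryonic stem cell line grown without feeder cells and used at passages 5 to 8. All libraries came from cells in ground state medium (GS), in which PD0325901 (1 μM) inhibits MEK, CHIR99021 (3 μM) inhibits GSK-3, and LIF is added at 20 ng/mL. Chromatin was fixed with 1% formaldehyde and sheared to about 200 bp, 8 μg of the Zeb1 antibody H-102 were used in each immunoprecipitation, and sequencing aimed at 20 M raw reads or more per library. GS was the single condition, and no expression was measured in this series, so the identity of the cells could not be checked against marker genes. For each peak the authors gave averages of the treatment reads, of the input reads and of the enrichment, a treatment to input ratio that they normalized. The enrichment of a peak was a median of 2.07 times the plain ratio of its reads, both over the 31 peaks (range 1.91 to 2.57) and over all peaks with input reads (range 0.698 to 4.19). There is no value per library, so no spread between the 3 ChIP libraries can be given, and all comparisons are descriptions of 1 list of peaks.

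Zeb1 is a zinc finger and homeodomain factor that binds E-box-like sequences and is best known for repressing epithelial genes. In the embryo, heart precursors form from mesoderm, and factors of the homeodomain, bHLH, MADS box and zinc finger families act together on the genes of the contractile apparatus. Nkx2-5 and Isl1 mark cardiac progenitors, Hand1 and Hand2 act in the left and right ventricle, Mef2 proteins and Srf bind the promoters of muscle genes, Myocd is a coactivator of Srf, and Casz1 is needed for cardiac morphogenesis.

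Each of the 10 genes had at least 1 assigned peak, where 53.2% of the 21000 protein-coding genes of the reference had one. A peak centre lay within 5 kb of the transcription start site (TSS) in 9 of the 10 genes, where 45.0% of protein-coding genes had such a peak. The exception was Mef2c. A second peak or more was assigned to 6 of the 10 genes, against 26.5% of the protein-coding genes with an assigned peak. Casz1 had 10 peaks, Hand2 had 6, Nkx2-5 had 4, Srf had 3, Hand1 and Mef2a had 2 each, and Mef2c, Mef2d, Isl1 and Myocd had 1 each.

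**Figure D1:**
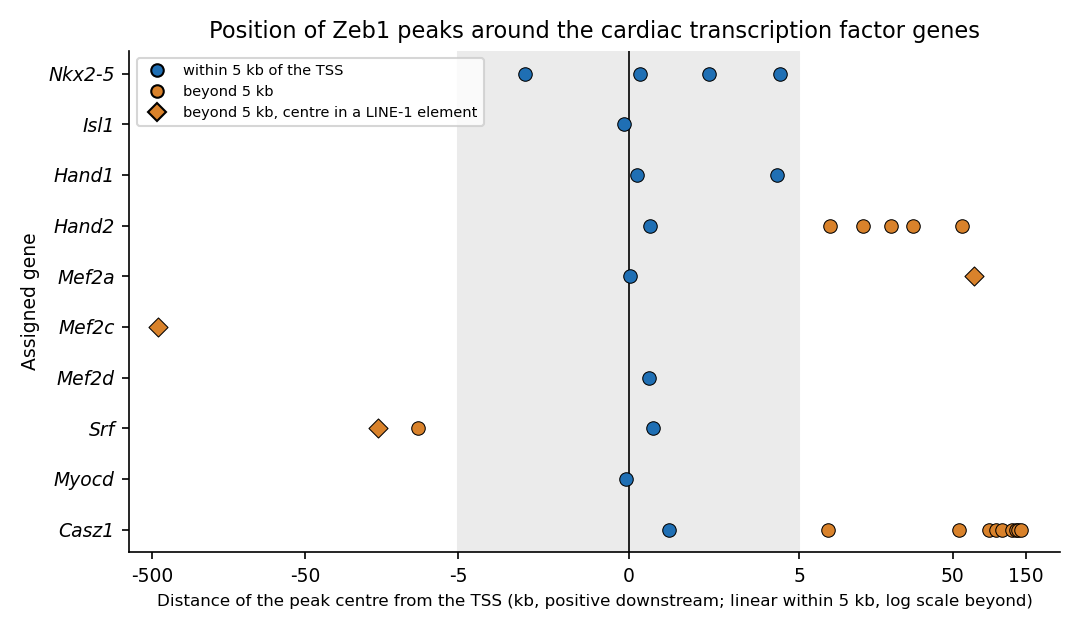
Distance of each peak centre from the TSS of the assigned gene in kb, on a scale that is linear within 5 kb and logarithmic beyond, with positive distances downstream. Each point is 1 of 31 peaks, blue within 5 kb of the TSS (grey band) and orange beyond, with diamonds where the peak centre lay in a LINE-1 element; all genes but Mef2c have a point in the band.

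The sequences shown first are those in which the Zeb1 core motif came closest to the start of these genes. The letters CACCTG and TACCTG, which together make up the core of the Zeb1 motif, were searched on both strands of each peak, and overlapping matches were counted. The paper searched a longer motif, [CT]N[CT]ACCTG, so the core is a looser criterion, and the longer motif was not counted here. For 8 of the 9 genes with a promoter peak, meaning one centred within 5 kb of the TSS, the match nearest the TSS is given with 12 bases on either side, read 5′ to 3′ on the strand of the match in GRCm38.p6, which corresponds to mm10, with the core in capitals.
Nkx2-5 (chr17:26841480-26841509, reverse strand): ggtgctccgcgcTACCTGctgccgcgcgcc
Hand1 (chr11:57832952-57832981, forward strand): catctggctcgcCACCTGcatgaaaatctt
Hand2 (chr8:57320674-57320703, forward strand): gaaataatactgTACCTGgtttaagattct
Mef2a (chr7:67373507-67373536, forward strand): tggtcggggccaCACCTGtgtccaggcctg
Mef2d (chr3:88141994-88142023, reverse strand): ttatctcgtggtTACCTGgggagctccgct
Srf (chr17:46554837-46554866, forward strand): gcctagcttcctCACCTGgttcctaaccct
Myocd (chr11:65270233-65270262, reverse strand): gtcgccaggcgcCACCTGcacgccgggcgc
Casz1 (chr4:148804500-148804529, reverse strand): cgccgagtctctTACCTGcacttggggcgg
The letters were CACCTG at Hand1, Mef2a, Srf and Myocd and TACCTG at Nkx2-5, Hand2, Mef2d and Casz1. The windows of Nkx2-5, Hand1, Mef2d and Myocd lack the C or T that the longer motif requires before the core. Those of Hand2, Mef2a, Srf and Casz1 have it. The match lay 71 bp downstream of the TSS in the 5′ UTR of Nkx2-5, 122 bp downstream in the 5′ UTR of Casz1, and 1311 bp downstream in intron 1 of Srf. It lay upstream of the TSS in the other 5 genes, at 258 bp in Myocd, 295 bp in Hand2, 387 bp in Mef2d, 663 bp in Mef2a and 819 bp in Hand1. Distances are from the TSS used in the deposited list, which for Mef2d differs by 23 bp from the reference start, from which the match lay 364 bp upstream. The Hand2 match is in intron 1 of Hand2os1, a noncoding RNA transcribed from the opposite strand. Isl1, the remaining gene with a promoter peak, had no match in its peak. These matches describe the sequence and do not show where in a peak Zeb1 was bound.

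Nkx2-5, a homeodomain factor of the earliest cardiac progenitors, was covered by Zeb1 peaks over nearly its whole length. All 4 of its peaks were centred less than 5 kb from the TSS, and they took up 91.4% of the 2901 bp gene on Chr. 17. The median peak of the list was 1850 bp long, and coverage over other genes this short was not computed. The same limit holds for the coverage of Hand1 and Hand2 below. The peak with the most reads, chr17:26838151-26840250, had its centre in coding sequence of exon 2, with 72.1 treatment and 16.4 input reads, an enrichment of 8.69. The peak over the TSS, chr17:26840501-26841950, had 36 treatment and 10 input reads and an enrichment of 7.4. The gap between these neighbours was 250 bp. The peak beyond the 3′ end of the gene (chr17:26836501-26837750, 4440 bp downstream of the TSS) had 26.3 treatment and 7.43 input reads and an enrichment of 7.6. The remaining peak, 3060 bp upstream of the TSS at chr17:26844001-26845250, had 29.5 treatment and 9.5 input reads and the lowest enrichment of the 4, 6.1, and the authors' annotation placed its centre in a CpG island. The 4 enrichments span the median of 6.5 over all peaks, and all but the exon 2 peak had fewer treatment reads than the list's median of 47.4.

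Isl1, a LIM homeodomain factor of the second heart field, had a single peak, and it lay on the promoter. The centre of this peak, chr13:116308901-116310750, was 137 bp before the TSS, with 50.5 treatment and 11 input reads. Its enrichment of 9.8 was higher than that of 84.2% of all peaks. The locus stood apart from other Zeb1 peaks. The next 100 kb on either side of the TSS had no further peak, and the nearest were 714 kb from one end of the gene, at Parp8, and 947 kb from the other, assigned to Itga1. The Isl1 peak held no CACCTG or TACCTG, while 91.3% of all peaks within 20% of its length held at least 1. Its CpG observed over expected ratio, the number of CG dinucleotides relative to that given by the C and G content, was 0.763, against a median of 0.538 over all peaks.

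Hand1 and Hand2, bHLH factors of the ventricles, both carried Zeb1 peaks over the gene, but their surroundings differed. At Hand1, the peak chr11:57828851-57834950 was 6100 bp long, longer than 98.9% of all peaks, and had 108.3 treatment and 24 input reads, an enrichment of 8.63. A shorter peak of 1500 bp, chr11:57827051-57828550, followed after a gap of 300 bp at the transcript's end, with 42.7 treatment and 7.86 input reads. Its enrichment of 11.2 was the highest of all peaks within 5 kb of the TSS of the 10 genes. Hand1 was covered by peaks over 96.0% of its 3435 bp, and the nearest peak past its 5′ end, assigned to Larp1, was 176 kb away.

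Hand2 had a peak over its TSS (chr8:57320351-57322850) with 77.7 treatment and 16.7 input reads and an enrichment of 9.76. This peak covered 52.8% of the 3535 bp gene, and the list's annotation placed it at the promoter of Hand2os1. Another 5 peaks followed downstream, and all had a lower enrichment than the peak at the TSS. They were centred 7942, 13092, 19967, 27492 and 57217 bp from the TSS, with enrichments of 4.35, 3.9, 7.05, 4.8 and 5.6 in that order. Their treatment reads were 40, 31.5, 69, 28 and 29, and their input reads 18, 16, 19, 15 and 12. The peak at 19967 bp (chr8:57339951-57341950) stood out among the 5 by its reads and enrichment, and it was annotated as a CpG island. The peaks at 13092, 19967 and 27492 bp were centred in introns of the noncoding RNA gene Hdnr. On the upstream side there was no peak for 215 kb.

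The MADS box genes did not share 1 pattern. Mef2a and Mef2d, which encode widely expressed Mef2 proteins, had a peak on the promoter, whereas Mef2c, the family member needed for heart looping, did not. The Mef2a promoter peak (chr7:67371551-67374100) was centred 33 bp downstream of the TSS in exon 1, with 62.7 treatment and 18 input reads and an enrichment of 7.3. The Mef2d peak (chr3:88141451-88144550) was 3100 bp long and centred in intron 1, with 67.4 treatment and 23.1 input reads. Its enrichment of 6.01 was the lowest of the 9 genes' best promoter peaks and below the median of all peaks. Srf, which binds CArG boxes of muscle and immediate early genes, had a promoter peak (chr17:46554351-46556550) centred in exon 1 with 53.4 treatment and 11.8 input reads, an enrichment of 9.8.

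The peak assigned to Mef2c (chr13:83049501-83050900) was centred 453834 bp upstream of the TSS in an L1Md_F2 element, a LINE-1 retrotransposon, and no peak touched the 163 kb gene. It had 86.9 treatment reads and 64 input reads, a plain ratio of 1.36. Its enrichment of 2.84 was the lowest of the 31 peaks, and 3.83% of all peaks had a lower one. Input reads were 64 or more in 93 of the 17435 peaks, this one included, and 65 of these 93 were centred in LINE-1 elements. Past the 3′ end of Mef2c, the nearest peak was 53.2 kb away and was assigned to C130071C03Rik (chr13:83720251-83722000), with 40 treatment and 4 input reads and an enrichment of 22.8. Mef2c thus counts among the genes with an assigned peak through 1 region that is far from the gene and high in input.

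Mef2a and Srf also had assigned peaks in LINE-1 elements. The Mef2a one, an L1Md_F2 element in intron 3 (chr7:67303601-67304900), had the highest enrichment of the 31 peaks, 11.7, on 28.4 treatment and 5 input reads. The Srf one, an L1Md_T element 16788 bp upstream of the TSS in an intron of the neighbouring gene Ptk7 (chr17:46571901-46574000), had 36 treatment and 11.5 input reads and an enrichment of 6.05. The third Srf peak, 9138 bp upstream in the 3′ UTR of Ptk7 (chr17:46564601-46566000), had 30.5 treatment and 17.5 input reads and an enrichment of 3.45. LINE-1 elements held the centre of 3 of the 31 peaks, or 9.68%, against 14.2% of all peaks. The 3 elements thus covered both ends of the enrichment range, and the median enrichment of all LINE-1 peaks was 5.3.

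The upstream sequences of the 3 Mef2 genes are shown as examples from 1 family of a start inside a Zeb1 peak and a start outside one. Each is the 250 bases before a start in the RefSeq promoter table for GRCm38.p6, written 5′ to 3′ on the gene's strand, with CG dinucleotides in capitals. Mef2c has 4 starts in the reference, and the one shown is that from which the list measured its peak.
Mef2a (chr7:67372859-67373108, reverse strand): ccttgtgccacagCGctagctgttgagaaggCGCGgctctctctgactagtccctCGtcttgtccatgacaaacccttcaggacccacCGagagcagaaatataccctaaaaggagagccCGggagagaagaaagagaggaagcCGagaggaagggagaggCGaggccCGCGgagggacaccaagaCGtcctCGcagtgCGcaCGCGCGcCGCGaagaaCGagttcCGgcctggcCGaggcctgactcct
Mef2d (chr3:88142122-88142371, forward strand): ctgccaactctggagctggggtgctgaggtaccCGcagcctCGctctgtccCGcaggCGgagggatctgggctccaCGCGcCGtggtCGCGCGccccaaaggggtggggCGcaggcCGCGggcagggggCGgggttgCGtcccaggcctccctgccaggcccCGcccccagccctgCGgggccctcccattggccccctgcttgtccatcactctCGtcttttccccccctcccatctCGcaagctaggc
Mef2c (chr13:83503784-83504033, forward strand): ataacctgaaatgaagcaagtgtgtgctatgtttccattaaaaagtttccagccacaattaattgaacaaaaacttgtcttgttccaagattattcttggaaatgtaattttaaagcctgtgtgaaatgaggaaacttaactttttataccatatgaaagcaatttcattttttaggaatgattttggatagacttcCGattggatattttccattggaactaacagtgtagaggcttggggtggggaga
The stretch upstream of Mef2a held 21 CG dinucleotides and that of Mef2d 19, and both lay inside their Zeb1 peaks. The stretch upstream of Mef2c held 1 and lay in no peak, and the stretches before 2 further Mef2c starts in the table, also in no peak, held 6 and 4. Hand1 and Myocd had no entry in the table, although the TSS of both lay inside a peak. Their CpG ratios over 1 kb around the TSS were 0.387 and 0.554. Over the entries of the other genes, the 7 upstream stretches inside a peak held 8 to 33 CG dinucleotides, and the 4 outside held 1 to 6. All of these 4 but 1, a further Casz1 start, were Mef2c starts, and no share over all promoters is given. The CpG ratio over the 300 bases of an entry ran from 0.466 (Nkx2-5) to 1.08 (Casz1) inside and from 0.109 to 0.612 outside, where both of the latter were Mef2c entries, so the ranges of the ratio overlapped. The part of CpG content in the result was not tested. None of the 3 stretches held CACCTG or TACCTG. In the promoter table, 8 of the 10 genes had an entry, and 1 of them, Nkx2-5, held a match within the 300 bases from 250 upstream to 50 downstream of the TSS. Over all genes with a promoter of 300 bases in that table, 29.3% held a match.

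Myocd had a single peak, centred 86 bp upstream of the TSS at chr11:65269351-65270800, with 36 treatment and 8.5 input reads and an enrichment of 8.35. Peaks covered 0.684% of this 93.4 kb gene. Beyond its 3′ end, a peak assigned to Arhgap44 followed after 13.2 kb, and on the promoter side the next peak was 517 kb away. Myocd and Isl1 were alike in that a promoter peak was the single peak centred within 100 kb of the TSS, and 17.1% of protein-coding genes had fewer than that.

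Casz1, a zinc finger factor, had 10 of the 31 peaks, spread over 142.6 kb of a 150.5 kb gene. The peak at its TSS (chr4:148803501-148807650) had 155 treatment reads, more than 98.6% of all peaks, and 44.2 input reads, more than 98.2%. Its enrichment was 7.54. The highest enrichment among the peaks assigned to Casz1, 10.4, belonged to a short peak in intron 1 (chr4:148811501-148812750), 7733 bp downstream of the TSS, with 26.5 treatment and 5 input reads. The Casz1 peak with the most reads was thus not the one with the highest ratio.

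The other 8 Casz1 peaks lay between 54.8 and 140.5 kb downstream of the TSS. The peak chr4:148934801-148939800 in intron 9 was 5000 bp long, with 91.7 treatment and 20.1 input reads and an enrichment of 8.88. It held 12 matches to the core motif, the most of the 31 peaks, and lay 250 bp from a peak centred in exon 6 with an enrichment of 8.5. Peaks at 86758 and 96433 bp (chr4:148890351-148891950 and chr4:148899751-148901900) were annotated as CpG islands, with enrichments of 7.09 and 6.95. The first of them was centred 1803 bp downstream of a further Casz1 TSS, that of a noncoding transcript. The list's Ensembl annotation placed the second at a promoter of Casz1. The lowest enrichments among the assigned peaks were 3.35 and 4.2, both in intron 4, on 28 and 23 treatment reads, and the latter was the lowest number of treatment reads among the 31 peaks. The 2 remaining peaks, in intron 2 and at the 3′ end of a shorter transcript, had enrichments of 4.87 and 6.6.

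Few genes had as many peaks as Casz1. The median gene name in the list had 1 peak, and 8 of 12271 names, or 0.0652%, had 10 or more. The 5 with the most were Gse1 with 18, 5730507C01Rik with 17, A330074K22Rik with 15, Rprl1 with 14 and Erdr1 with 13. Without Casz1, the 9 other genes held 21 peaks, 12 of them within 5 kb of the TSS.

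**Figure D2:**
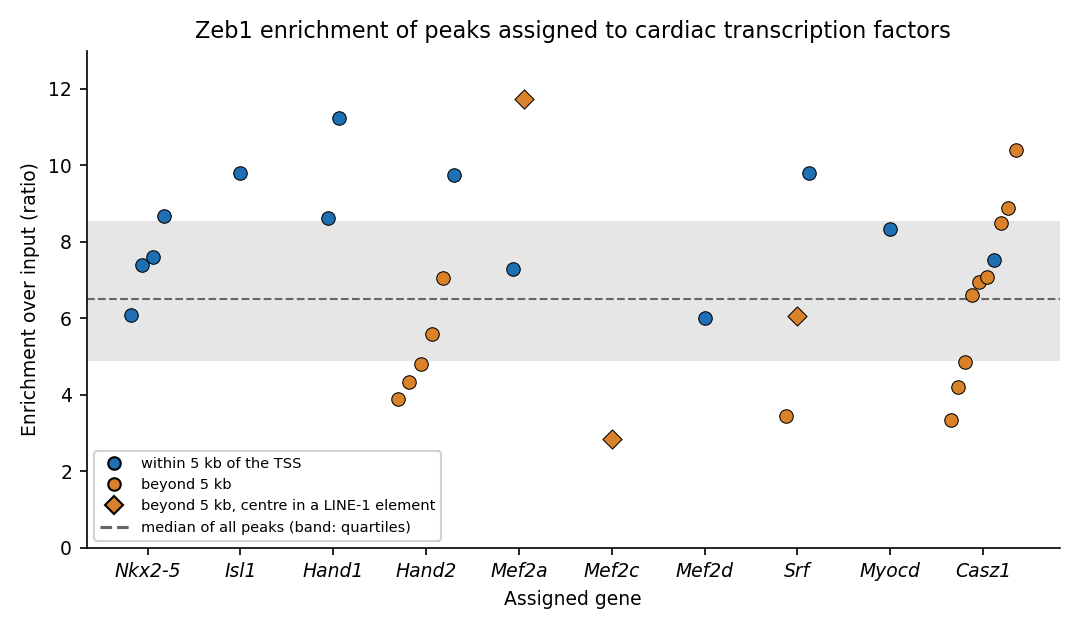
Enrichment over input, a ratio, of each of the 31 peaks by assigned gene, blue within 5 kb of the TSS and orange beyond, with diamonds for LINE-1 elements. The dashed line is the median of all 17435 peaks, 6.5, and the band spans their quartiles, 4.91 and 8.53; the blue points run from 6.01 to 11.2 and the orange ones from 2.84 to 11.7.

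Across the 31 peaks, the median enrichment was 7.09, with quartiles of 5.24 and 8.66, beside 6.5 (4.91 and 8.53) over all peaks. Enrichment was at least 5 in 23 of the 31, or 74.2%, against 74.0% over the list, so the share of high peaks was near the background. The position relative to the TSS separated the peaks more clearly. All 13 peaks within 5 kb of the TSS had an enrichment of at least 6.01, with a median of 8.35, whereas 19% of all peaks within 5 kb were below 5 and their median was 6.74. Of the 18 peaks beyond 5 kb, 8 were below 5, or 44.4%, with a median of 5.82, against 37.0% and a median of 6 for all peaks beyond 5 kb. The share of peaks within 5 kb was 41.9%, lower than the 61.4% of all peaks, and Casz1 alone had 9 of the 18 distal peaks. Of the 13 centres within 5 kb, 10 were downstream of the TSS, or 76.9%, which is near the 74.8% of all peaks within 5 kb.

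**Figure D3:**
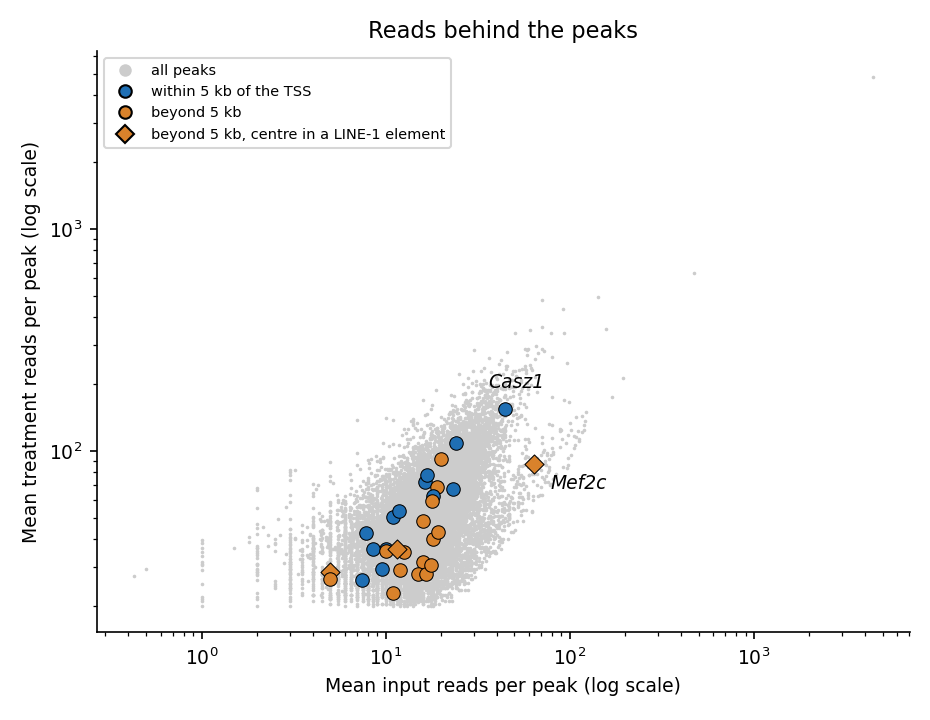
Mean treatment reads against mean input reads per peak, both on log scales, with all peaks in grey (7 peaks with 0 input reads are not drawn) and the 31 peaks in colour. Mef2c, at 86.9 treatment and 64 input reads, lies apart from the other 30 coloured points, and Casz1 has the point with the most treatment reads, 155.

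The reads behind these values were few for most of the 31 peaks. Treatment reads had a median of 40 and ran from 23 to 155, and input reads had a median of 16 and ran from 5 to 64. Over the whole list the medians were 47.4 and 16. At 5 input reads, as at the Mef2a LINE-1 peak and the Casz1 intron 1 peak, a change of a few reads moves the ratio most, and both of these peaks are among those with the highest enrichment. The median peak length was 1950 bp, with a range of 1250 to 6100 bp, against a median of 1850 bp over the list.

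The base composition of the peaks followed their distance from the TSS. The CpG observed over expected ratio had a median of 0.685 in the 13 peaks within 5 kb and 0.325 in the 18 beyond, and the same medians over all peaks were 0.643 and 0.347. The highest ratio, 0.872, was in the Casz1 peak at 96433 bp, counted as distal although the list's Ensembl annotation placed it at a Casz1 promoter. The lowest, 0.145, was in the Mef2c LINE-1 peak. GC content had a median of 55.4%, beside 55.5% over all peaks. The authors' annotation placed 5 of the 31 centres in CpG islands, or 16.1%, against 14% of all peaks. The gap in CpG ratio between near and distal peaks was thus present in the whole list as well.

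The core motif was present in 26 of the 31 peaks, or 83.9%, against 91.0% of all peaks. Peaks of like length, within 20% of each of the 31, held it in 90.9% on average, which would come to 28.2 peaks. The 5 peaks without a match were those of Isl1, the Hand1 peak at the transcript's end, the Hand2 peaks at 13092 and 57217 bp, and the Casz1 peak at 86758 bp. The number of matches was above the median of like-length peaks in 11, below it in 15 and equal to it in 5. Matches numbered 93 in all, or 1.38 per kb, beside 1.68 per kb over the whole list, and Casz1 held 44 of them at 1.72 per kb. The long Hand1 peak had 5 matches, where peaks of like length had a median of 11. CACCTG alone was found in 23 peaks, or 74.2%, against 82.1% of all peaks.

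**Figure D4:**
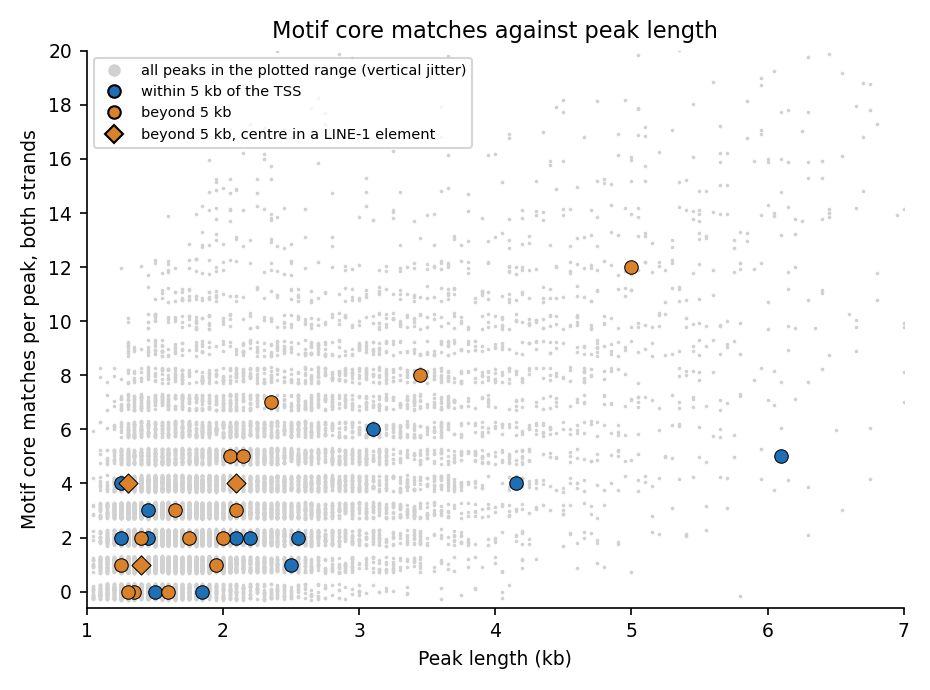
Number of matches to the core motif on both strands against peak length in kb, with all peaks of the plotted range in grey, spread vertically for legibility, and the 31 peaks in colour. The long Hand1 peak at 6.1 kb has 5 matches and the Casz1 peak at 5 kb has 12, and 5 coloured points are at 0.

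Other genes of the cardiac network were taken from lists of upstream factors and partners and of target genes. Among 37 upstream factors and partners, such as the Gata, Tbx and Fox factors, E proteins, Srf partners and class II histone deacetylases, 33 had an assigned peak and 30, or 81.1%, had one within 5 kb of the TSS. The highest enrichments within 5 kb were at Foxh1, a Smad partner (16.7), Tbx1, a factor of the second heart field (13.7), and Foxc2 (13.5). Tbx5, Hey2 and Hdac4 had peaks beyond 5 kb alone, with their highest enrichments at 3.45, 2.15 and 12.8. No peak was assigned to Smyd1, Elk1, Hdac5 or Hdac9. Both this list and the 10 cardiac transcription factors lay above the share of all protein-coding genes with a promoter peak. Its median of the highest promoter enrichment was 8.15, beside 8.69 for the 9 genes and 6.84 over all gene names with such a peak. The measure takes the highest of a gene's promoter peaks, of which Nkx2-5 had 4 and Hand1 had 2. It was not adjusted for their number.

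Target genes were peak-free more often. Of 20, 6 had an assigned peak and 5, or 25%, had one within 5 kb, against the 45.0% of protein-coding genes. The highest enrichments were at Egr1 (9.06) and Fgf8 (8.98), which encode an immediate early factor and a secreted growth factor, and at Vcl (8.36), which encodes vinculin. Ryr2 had a promoter peak with 8.3 and Cnn1 had 2 with 4.35 at most, and the peak of Fos, with 4.35, was 12074 bp downstream of the TSS. No peak was assigned to the other 14, among them the natriuretic peptide genes Nppa and Nppb and the sarcomere genes Actc1, Myh6, Myh7, Tnnt2, Tnni3, Myl2 and Myl7, as well as Bmp10. The target genes were thus the one list of the 3 whose share was below that of all protein-coding genes, which is a count over lists and not a test.

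**Figure D5:**
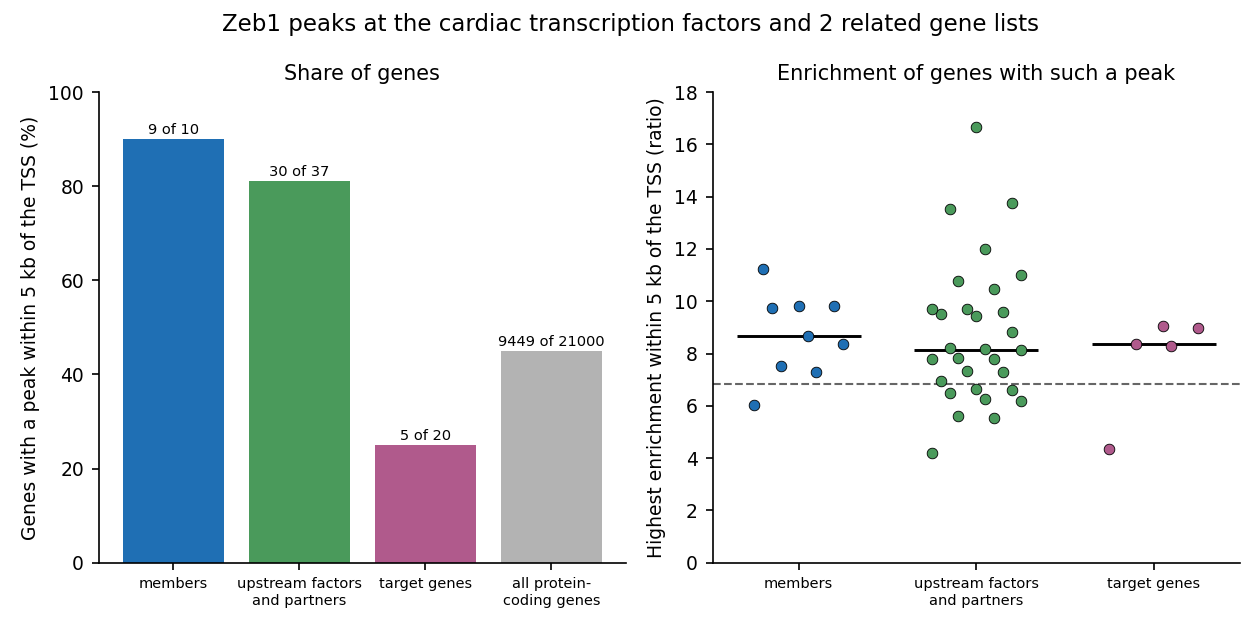
Left, percentage of genes that had a promoter peak, centred within 5 kb of the TSS, for the 10 cardiac transcription factors (members), 37 upstream factors and partners, 20 target genes and all protein-coding genes. Right, the highest enrichment within 5 kb for each gene with such a peak, with a line at each group's median (8.69, 8.15 and 8.36) and a dashed line at the median of all gene names with such a peak, 6.84.

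Promoter composition differed between the lists as well, and its part in the result was not tested. Promoters were grouped by the 1 kb around the outermost TSS of each gene, as CpG-rich at a CpG ratio of at least 0.6 and a GC content of at least 50%. Such promoters were found for 6 of the 10 cardiac transcription factors, 29 of the 37 upstream factors and partners and 5 of the 20 target genes. Over all protein-coding genes, 72.5% of the 10084 with a CpG-rich promoter and 19.5% of the other 10916 had a peak within 5 kb. Within the CpG-rich class, 6 of 6, 26 of 29 and 4 of 5 genes had such a peak. In the other class, the counts were 3 of 4 for the cardiac transcription factors, which were Nkx2-5, Hand1 and Myocd with Mef2c as the exception, 4 of 8 for the upstream factors and partners, and 1 of 15 for the target genes. Nkx2-5 and Myocd fell just short of the CpG-rich class, with ratios of 0.592 and 0.554, while Hand1 had 0.387 and Mef2c 0.296.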

How the data were processed

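Zeb1 ChIP was compared with input in mESC kept in GS. The authors aligned reads to mm10 with STAR 2.4.2a, removed duplicates with Picard 1.136, called peaks per ChIP library, unified those present in at least 2 of 3 libraries, averaged the values and annotated them with HOMER 4.7. The deposited treatment and input reads are a signal, the mean reads per peak. The methods describe depth normalization. The deposited enrichment, a ratio that the authors normalized and averaged, was a median of 2.07 times the ratio of the reads, and the cause was not tested. The deposited p-value was 0 in every peak and was not used. Depth per library is not given in the list. Positive deposited distances lay downstream of the TSS by the reference, the opposite of the file's legend. Sequence, genes and promoters came from RefSeq for GRCm38.p6, in which 12227 of 12271 gene names were matched. Counts, medians and percentiles were computed with Python 3.11.15, NumPy 2.4.6, pandas 2.3.3 and pysam 0.24.0, and the motif search was checked on simulated sequence. No test was made. The members and lists were chosen with earlier results of these data known. Named genes are the members, genes given a peak that overlaps a member with 5 kb on either side, the 3 genes of each list with the highest enrichment within 5 kb and up to 10 without a peak, the nearest peaks' genes for a member with no peak, and up to 5 genes with at least as many peaks as the top member. Other genes, and the CpG-rich class, were chosen after their values were seen.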

Additional observations from a re-analysis of the deposited data

Results flagged for a closer look

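The list assigned 4 peaks to other genes although they overlapped 1 of the 10 genes or the 5 kb on either side of it, so the counts above leave them out. At Casz1, the peak chr4:148950551-148954250 lay wholly within the gene, centred in the coding part of its last exon, and was assigned to Pex14, with 109 treatment and 19.3 input reads and an enrichment of 11.5. This was higher than any peak assigned to Casz1. A second peak assigned to Pex14 (chr4:148959451-148963400) lay 4559 bp past the 3′ end of Casz1 and had an enrichment of 10.1. At Mef2d, the peak chr3:88166951-88168850 was centred in an intron of Mef2d and assigned to 1700113A16Rik, with an enrichment of 6.57. At Srf, the peak chr17:46545501-46547150 reached 312 bp into the 3′ end of the gene and was centred on the first exon of Cul9, to which it was assigned, with an enrichment of 10.2.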

How the results depend on the processing

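The count of genes with an assigned peak was 9 in place of 10 under each of its 4 alternatives: gene body with 5 kb flanks, enrichment of at least 5, at least 40 treatment reads, and no LINE-1 peaks. Myocd was lost with the limit on reads and Mef2c in the other 3. The count with a promoter peak stayed at 9 with a limit of 10 kb, any TSS of the gene or enrichment of at least 5, and was 8, without Casz1, with a limit of 1 kb. The 31 peaks became 16 with at least 40 treatment reads, which leaves fewer peaks by construction, and between 23 and 28 under the other 4 alternatives. The median enrichment of 7.09 was 3.24 as treatment plus 1 over input plus 1 reads (3 over all peaks), 9.78 over the highest peak of each gene, 8.35 within 5 kb of the TSS and 7.19 without LINE-1 peaks. Leaving out LINE-1 peaks was chosen after the data had been seen. The motif count of 26 became 14 within the central 500 bp, where 52.2% of all peaks held a match. It was 23 of the 31 peaks, or 74.2%, both on the forward strand and with CACCTG alone. The shares of all peaks were 73.5% and 82.1% in that order, so on the forward strand the 31 peaks were near the background. No paired analysis was possible because the list carries no values per library and the ChIP and input groups share only replicate number 1. Leaving out each ChIP library needs such values and was not run. Few reads per peak limit the precision of single enrichments, and the gene assignment by nearest TSS limits what a distal peak says of a gene.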
